A study of Drosophila simulans and Drosophila melanogaster and Drosophila sechellia with 48 samples.

Results

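The genes described here are 38 predicted genes of Drosophila whose array signal was higher in each of the 9 arrays of the yakuba complex (D. teissieri, D. yakuba and D. santomea) than in any of the 39 arrays of D. sechellia, D. mauritiana, D. simulans and D. melanogaster. They were picked from the 4482 genes on the array whose symbol is only CG followed by a number, and these in turn belong to the 10844 genes that a probe set names singly. Each gene was represented by its brightest probe set, as log2 of the signal after quantile normalization over all 48 arrays. The gap of a gene is its lowest value in the 9 arrays of the yakuba complex minus its highest value in the 39 others, and a gene was taken if the gap was above 0. The choice therefore used the signals of all arrays. The difference between the yakuba complex and the other species is given as a description without a test, and the requirement favours genes with little spread between arrays.

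A CG symbol is the number that a computed gene received when the D. melanogaster genome was annotated, and a gene keeps it as its symbol for as long as it has no other name. D. yakuba, D. santomea and D. teissieri are close relatives in an African branch of the melanogaster subgroup, and D. santomea lives on the island of São Tomé. D. simulans, D. sechellia and D. mauritiana are sister species and the closest relatives of D. melanogaster, with D. sechellia living in the Seychelles and D. mauritiana on Mauritius. None of the sources used here annotates a function for any of the 38 genes, so none is given. The probes were designed on the D. melanogaster genome, so that the amount of RNA and the match of a species' RNA to the probes cannot be told apart in a difference of signal between species. In whole flies, fewer cells of a type and less RNA per cell cannot be told apart either.

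Every array measured RNA of 20 whole males collected 3 days after pupation, all reared at 25 °C in continuous light and stunned with CO2. There were 3 arrays each of D. teissieri, D. yakuba, D. santomea, D. sechellia and D. mauritiana, and the study took just 1 line of each of these 5 species, which leaves species and line confounded. D. simulans had 30 arrays, 3 for each of 10 crosses made in a ring between isogenic lines, so that neighbouring crosses share a line. D. melanogaster had 3 arrays of an even mix of 10 isogenic lines. No genotype was altered and no agent was applied in any group. The D. simulans and D. melanogaster arrays came from an earlier collection than those of the other 5 species. The paper describes the 3 arrays of each of the 5 species with 1 line as biological replicates that were independent. The labels number the arrays of a group as replicates without saying which flies or vials they came from. The p-values measure only the spread between these arrays.

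The correlation between replicate arrays over all features was lowest in D. yakuba (r between 0.66 and 0.86) and highest in D. simulans cross 11x36 (0.92 to 0.93). Yolk and eggshell genes, which males should hardly express, stood apart in D. sechellia replicate 1 and in D. simulans cross 37x43 replicate 3, each with a log2 summed signal of 17.25. Apart from these, the sum was 11.86 to 13.60 in the 9 arrays of the yakuba complex against 10.31 to 11.58 in the 37 other arrays, without overlap. With those 2 arrays included, 7 of the 9 measured genes had a higher mean in the yakuba complex, and Yp1 and Yp3 did not. This list therefore separated the arrays in the same way as the 38 genes once those 2 arrays were set aside. With both arrays left out, 40 genes met the requirement, and since leaving out arrays of the other species lowers their maximum, this count bears little on the 38. Among markers of male tissues, seminal fluid genes of the accessory gland differed most: none of the 7 measured was higher in the yakuba complex, and their log2 summed signal was 9.53 to 12.04 in the yakuba complex against 12.75 to 16.39 in the other species. The summed signals of the remaining lists overlapped between the yakuba complex and the other species (testis 15.76 to 17.25 against 15.08 to 17.77, muscle 13.35 to 16.23 against 13.29 to 17.06, eye 14.21 to 15.30 against 13.88 to 15.72, gut 12.73 to 16.35 against 13.67 to 17.34, fat body 12.10 to 13.35 against 12.11 to 14.68). Such sums follow the brightest genes, and single genes could differ more, as dj of the testis list with means of 5.03 against 8.75. The mean was higher in the yakuba complex for 3 of 10 measured testis genes, 2 of 4 muscle, 1 of 2 eye, 1 of 5 gut and 2 of 4 fat body genes. None of the 38 genes is on these lists, and the part of tissue make-up in their signals was not tested.

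The 38 genes made up 0.848% of the CG genes, where 0.719% of all 10844 genes, 0.768% of all 12367 features (genes and unnamed probe sets) and 0.629% of the 6362 genes with another name met the same requirement. The opposite pattern, with all 9 arrays of the yakuba complex below all 39 others, was met by 72 CG genes (1.61%) and by 97 genes with another name (1.52%). The mean signal of the 38 genes was 0.91 to 3.49 higher in the yakuba complex on the log2 scale, with a median of 1.53, which is 1.88-fold to 11.3-fold with a median of 2.88-fold. Of these genes 7 were at least 4-fold higher, 30 were between 2-fold and 4-fold higher, and CG7523 alone was under 2-fold. Over the 38 genes, the median of the species means was 11.25 in D. teissieri, 11.29 in D. yakuba and 11.27 in D. santomea, against 9.54 in D. sechellia, 9.83 in D. mauritiana, 9.78 in D. simulans and 9.24 in D. melanogaster. The species of the yakuba complex thus lay within 0.1 of each other in this median, and the others spread more widely, with D. melanogaster at the bottom. The requirement itself favours little spread in the yakuba complex and limits the others only from above, so nothing is read from this contrast. D. melanogaster had the lowest mean of the 4 other species for 20 of the 38 genes, and D. mauritiana had the highest for 17. These orders were not counted over all features and are a description of the 38 only.

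**Figure D1:**
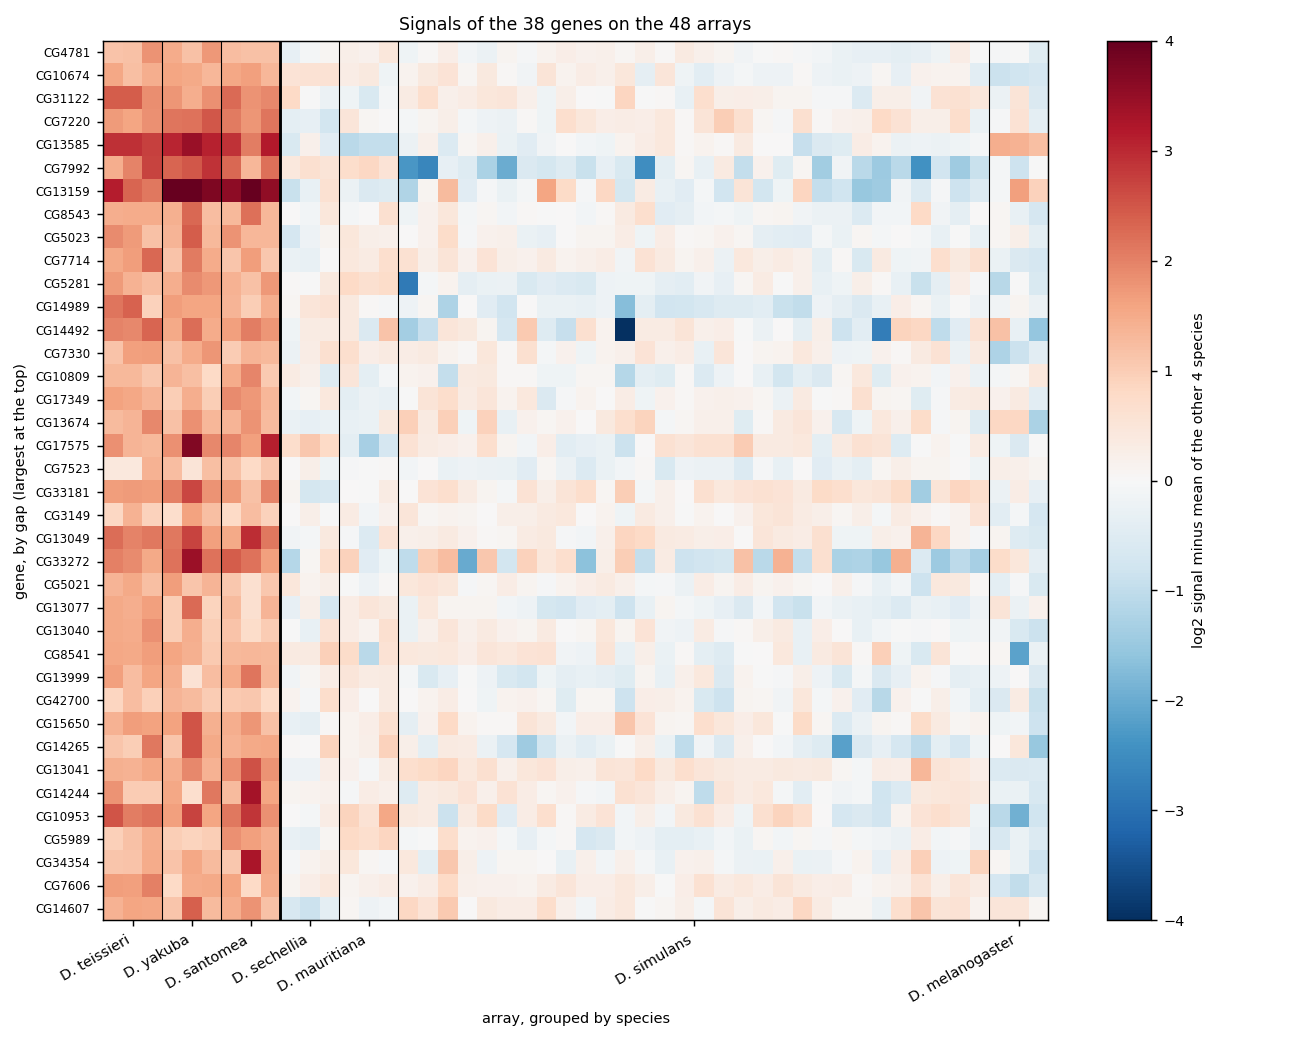
Log2 signal of the 38 genes (rows, by gap) on the 48 arrays (columns, by species) minus the mean of D. sechellia, D. mauritiana, D. simulans and D. melanogaster, with colours ending at 4 and −4; the thick line ends the yakuba complex. The 9 columns left of it are red in every gene, as the choice required, most deeply in CG13159 and CG13585, and CG13585 is also raised in the 3 D. melanogaster arrays.

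CG4781 had the widest gap, 0.68. Its log2 signal was 11.20, 11.22 and 11.85 in D. teissieri, 11.53, 11.24 and 11.79 in D. yakuba, and 11.29, 11.23 and 11.22 in D. santomea, against a lowest, median and highest value of 9.57, 10.05 and 10.52 in the 39 other arrays. All 9 values lay close together, and the nearest array from outside was D. mauritiana replicate 3. The means differed by 1.34, or 2.53-fold.

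CG10674 followed with a gap of 0.62 and had the tightest values of all 38 genes in the yakuba complex, where they ranged over 0.46. D. teissieri read 11.32, 10.97 and 11.24, D. yakuba 11.36, 11.30 and 11.12, and D. santomea 11.34, 11.43 and 11.12, against 8.93, 9.86 and 10.35 as lowest, median and highest of the others. The others were not alike: D. sechellia averaged 10.34 ± 0.01 (SD, n = 3) and D. melanogaster 9.01 ± 0.09 (SD, n = 3). The mean in the yakuba complex was 2.75-fold higher.

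CG31122 had a gap of 0.61 and a 3.92-fold difference. It read 11.71, 11.72 and 11.17 in D. teissieri, 11.07, 10.77 and 11.14 in D. yakuba, and 11.56, 11.09 and 11.22 in D. santomea, against 8.70, 9.50 and 10.16 as lowest, median and highest of the other arrays. D. teissieri replicates 1 and 2 were the highest and D. yakuba replicate 2 the lowest within the yakuba complex. CG7220, with a gap of 0.60, read 13.49, 13.36 and 13.63 in D. teissieri, 13.93, 13.96 and 14.27 in D. yakuba, and 13.87, 13.56 and 13.94 in D. santomea, against 11.05, 11.96 and 12.76. Here the D. sechellia arrays were low, with a mean of 11.30 ± 0.22 (SD, n = 3), and the difference was 3.97-fold.

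CG13159 differed most, by 3.49 on the log2 scale or 11.3-fold. Its values were 11.10, 10.28 and 10.07 in D. teissieri, 12.16, 12.52 and 11.68 in D. yakuba, and 11.53, 12.16 and 11.48 in D. santomea, against 6.45, 7.73 and 9.58 as lowest, median and highest of the others. The 3 D. teissieri arrays were the lowest of the yakuba complex and the gap to D. melanogaster replicate 2, the highest of the others, was 0.48. CG13585 was next in size at 7.55-fold. It read 12.89, 12.89 and 12.69 in D. teissieri, 13.02, 13.43 and 13.04 in D. yakuba, and 12.87, 12.01 and 13.13 in D. santomea, against 8.88, 9.89 and 11.43 in the others. Its 3 D. melanogaster arrays, at 11.43, 11.35 and 11.18, stood between the yakuba complex and the remaining arrays, none of which was above 10.40.

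CG7992 was 4.53-fold higher, with 10.46, 10.99 and 11.71 in D. teissieri, 11.35, 11.50 and 11.91 in D. yakuba, and 11.32, 10.34 and 11.23 in D. santomea, against 6.41, 8.50 and 9.85 in the others. D. simulans reached far down in this gene, and D. mauritiana, with a mean of 9.72 ± 0.14 (SD, n = 3), was the nearest species. CG17575, at 4.20-fold, was uneven within D. yakuba, where it read 11.65, 13.53 and 11.77. It read 11.66, 11.21 and 11.13 in D. teissieri and 11.80, 11.46 and 12.95 in D. santomea, against 8.50, 10.09 and 10.92 in the others. CG13049 read 12.68, 12.42 and 12.57 in D. teissieri, 12.55, 13.15 and 12.08 in D. yakuba, and 11.95, 13.40 and 12.57 in D. santomea. The others had 9.84, 10.65 and 11.82, and the difference was 4.44-fold. D. simulans cross 99x105 held its highest value outside the yakuba complex. CG33272 and CG10953, the remaining genes past 4-fold, were each 4.46-fold higher.

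**Figure D2:**
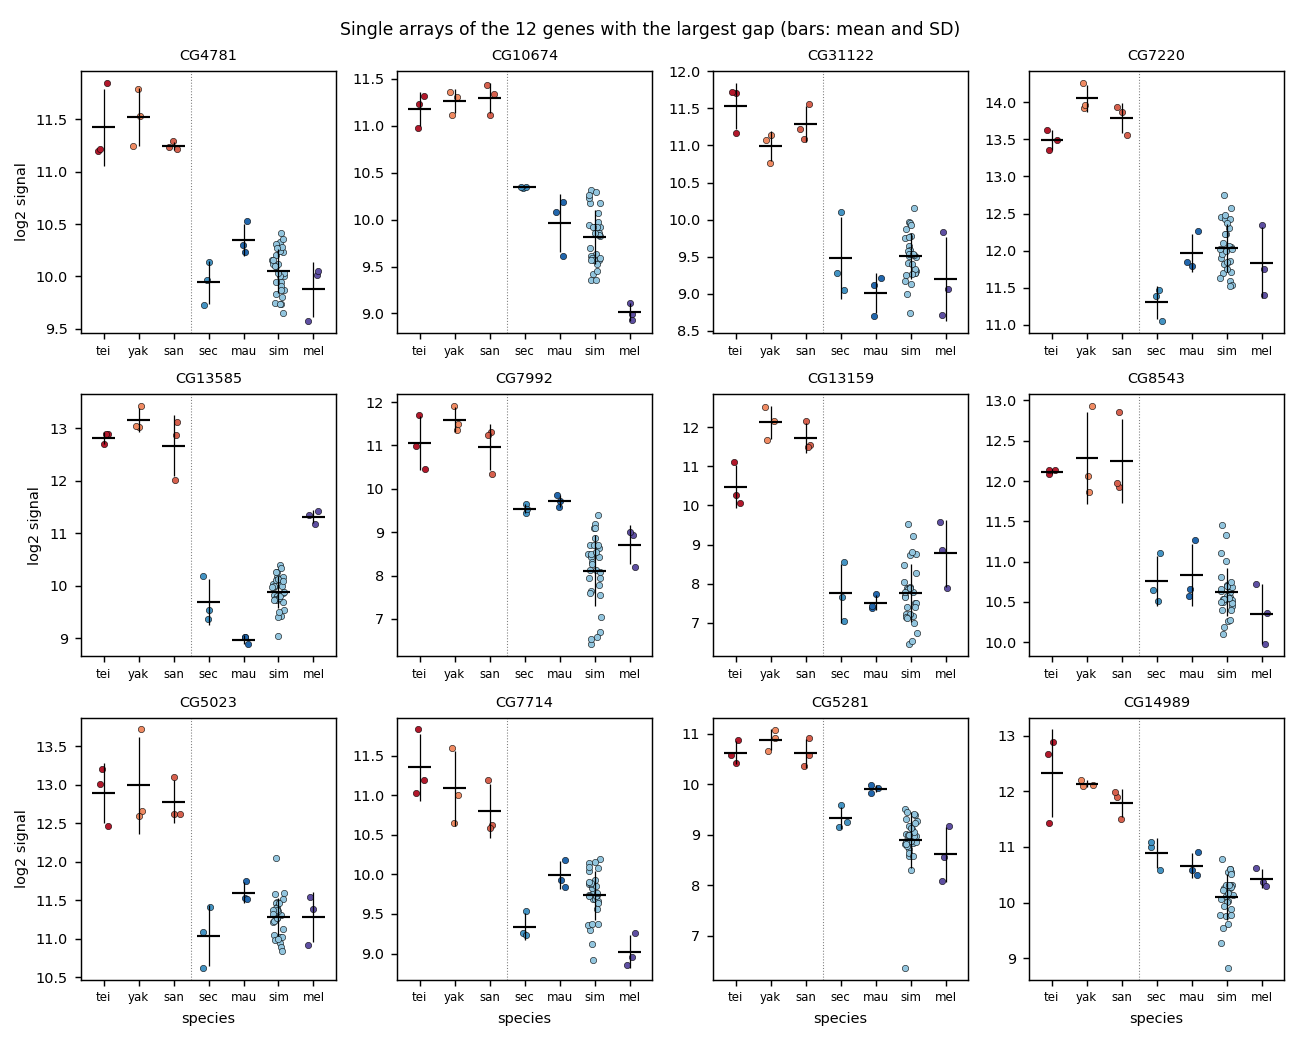
Log2 signal of the 12 genes with the largest gap on single arrays (dots), by species along the x axis, with the mean and SD of each species; y axes differ between panels. All dots of D. teissieri, D. yakuba and D. santomea, left of the dotted line, lie above all dots right of it, as the choice required, and in CG13585 the D. melanogaster dots form a level of their own.

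The further genes among the 20 with the widest gap were CG8543, CG5023, CG7714, CG5281, CG14989, CG14492, CG7330, CG10809, CG17349, CG13674, CG7523 and CG33181, with gaps of 0.41 down to 0.18. CG8543 was 2.98-fold higher, at 11.86 to 12.93 in the yakuba complex and 9.97 to 11.45 in the others. CG5023 was 3.01-fold higher, at 12.46 to 13.72 in the yakuba complex and 10.62 to 12.05 in the others. CG7714 was 2.95-fold higher, at 10.59 to 11.83 in the yakuba complex and 8.86 to 10.19 in the others. Their distances were of like size, while CG14492 spread widely between the other arrays: it held 8.87 to 9.69 in the yakuba complex and 3.19 to 8.55 elsewhere. The species means of CG14492 were close there, at 7.54 in D. sechellia, 7.69 in D. mauritiana, 7.12 in D. simulans and 7.15 in D. melanogaster. Its lowest value was in D. simulans, whose median was 7.45. CG13674 had values of 14.33 to 15.08 in the yakuba complex and 11.88 to 14.11 in the others. CG7523 had the smallest difference of all, 0.91, with 10.60 to 11.56 in the yakuba complex against 9.56 to 10.41. CG5281 (2.86-fold), CG14989 (2.96-fold), CG7330 (2.62-fold), CG10809 (2.43-fold), CG17349 (2.70-fold) and CG33181 (3.53-fold) lay between these.

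The genes with narrower gaps were as far apart in their means. The faintest probe sets showed this at low signal: CG14244 held 7.11 to 9.77 in the yakuba complex and 5.42 to 7.06 in the others, CG34354 held 7.45 to 9.63 and 5.56 to 7.44, and CG33272 held 8.90 to 10.80 and 5.34 to 8.78. In CG34354 the top of the range was D. santomea replicate 2 alone, and the other 8 arrays of the yakuba complex were at most 7.91. CG15650 was 3.08-fold higher, CG14265 2.89-fold, CG13999 2.65-fold, CG8541 2.65-fold, CG13077 2.52-fold, CG13040 2.36-fold, CG5021 2.34-fold, CG42700 2.10-fold and CG3149 2.09-fold. CG13041 was 3.25-fold higher, at 13.22 to 14.38 in the yakuba complex and 11.28 to 13.16 in the others, and CG10953 held 10.92 to 12.19 and 7.43 to 10.88.

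**Figure D3:**
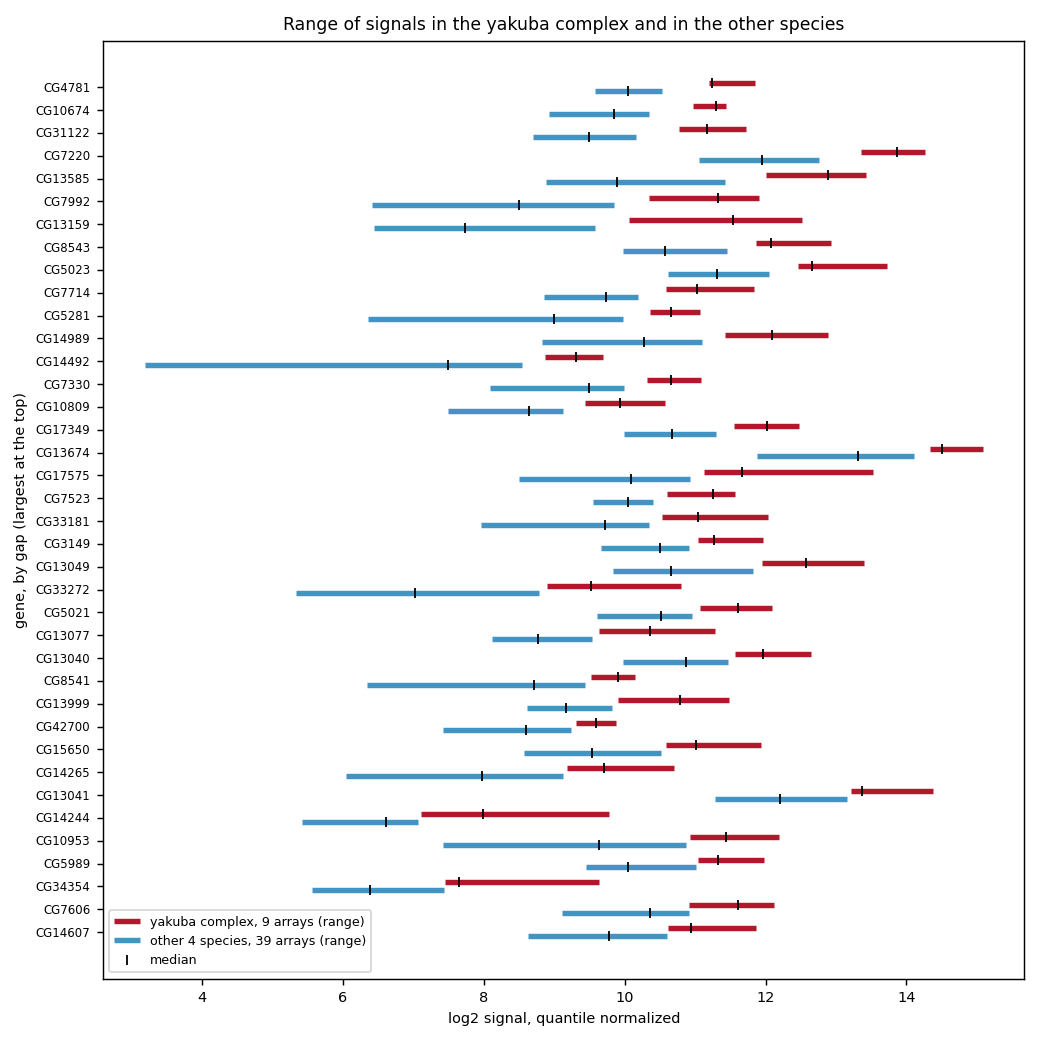
Range (bar) and median (tick) of the log2 signal of each of the 38 genes in the 9 arrays of the yakuba complex (red, upper bar) and in the 39 other arrays (blue, lower bar), ordered by gap. The bars do not overlap, as the choice required, and the distance between them runs from 0.68 in CG4781 at the top to 0.0063 in CG14607 at the bottom.

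The median gap was 0.19. The 5 genes just inside the limit were CG10953 (gap 0.045), CG5989 (0.028), CG34354 (0.0071), CG7606 (0.0067) and CG14607 (0.0063). The 5 CG genes just outside it were CG13001 (−0.012), CG13705 (−0.015), CG42795 (−0.016), CG44098 (−0.021) and CG15308 (−0.030). Their means differed as much as those of the genes inside: CG13001 averaged 10.94 in the yakuba complex and 9.18 in the other species, and CG44098 averaged 11.60 and 9.66. CG14607 averaged 11.01 in the yakuba complex and 9.49 in the other species.

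The lowest of the 9 values came from D. teissieri for 11 genes, from D. yakuba for 14 and from D. santomea for 13. The highest of the 39 others came from D. sechellia for 5, D. mauritiana for 10, D. simulans for 19 and D. melanogaster for 4. Among the 38, the array of the yakuba complex that most often held the lowest value was D. santomea replicate 2, for 7 genes. Without this array 51 genes met the requirement, the highest count on leaving out 1 array. Of the 38, 34 had a mean over all arrays above 7.77, the median of all features, and 28 were above 9.04, the upper quartile. The pooled SD between replicate arrays had a median of 0.34 in the 38 genes, 0.75 over all features and 0.43 over features above the upper quartile, a measure that the requirement itself pushes down.

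The arrays of the yakuba complex were collected with those of D. sechellia and D. mauritiana, and later than those of D. simulans and D. melanogaster. The mean of the yakuba complex was 0.83 to 3.81 above that of D. sechellia and D. mauritiana (median 1.42), and 0.92 to 3.18 above that of D. simulans and D. melanogaster (median 1.71). The requirement fixes both differences above 0, so their signs say nothing about the collections. In 9 genes it was larger against D. sechellia and D. mauritiana. With only these 6 arrays as the others, 176 CG genes met the requirement, and with only the 33 arrays of D. simulans and D. melanogaster 46 did, and either set of genes holds the 38 by construction. The highest of 6 arrays is an easier limit than the highest of 33. The counts therefore cannot be compared between the collections, and shares over all features were not counted for them.

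Which genes met the requirement depended on how the arrays were scaled. Without normalization between arrays 42 CG genes met it, 30 of the 38 among them, and after centring each array on its median 36 did, 19 of the 38 among them. The same 19 genes met it under all 3 scalings, and 8 met it with quantile normalization alone. After median centring CG4781, CG10674 and CG31122 had gaps of −0.23, −0.14 and −0.09, so that the 3 widest gaps were lost, whereas CG13674 widened to 0.97. The difference of means between the yakuba complex and the others, on which the genes had been chosen, was 0.88 to 3.41 without normalization and 0.82 to 3.35 after median centring. The median difference of all features between the yakuba complex and the others was 0.08 after quantile normalization, 0.20 without normalization and 0.14 after median centring.

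**Figure D4:**
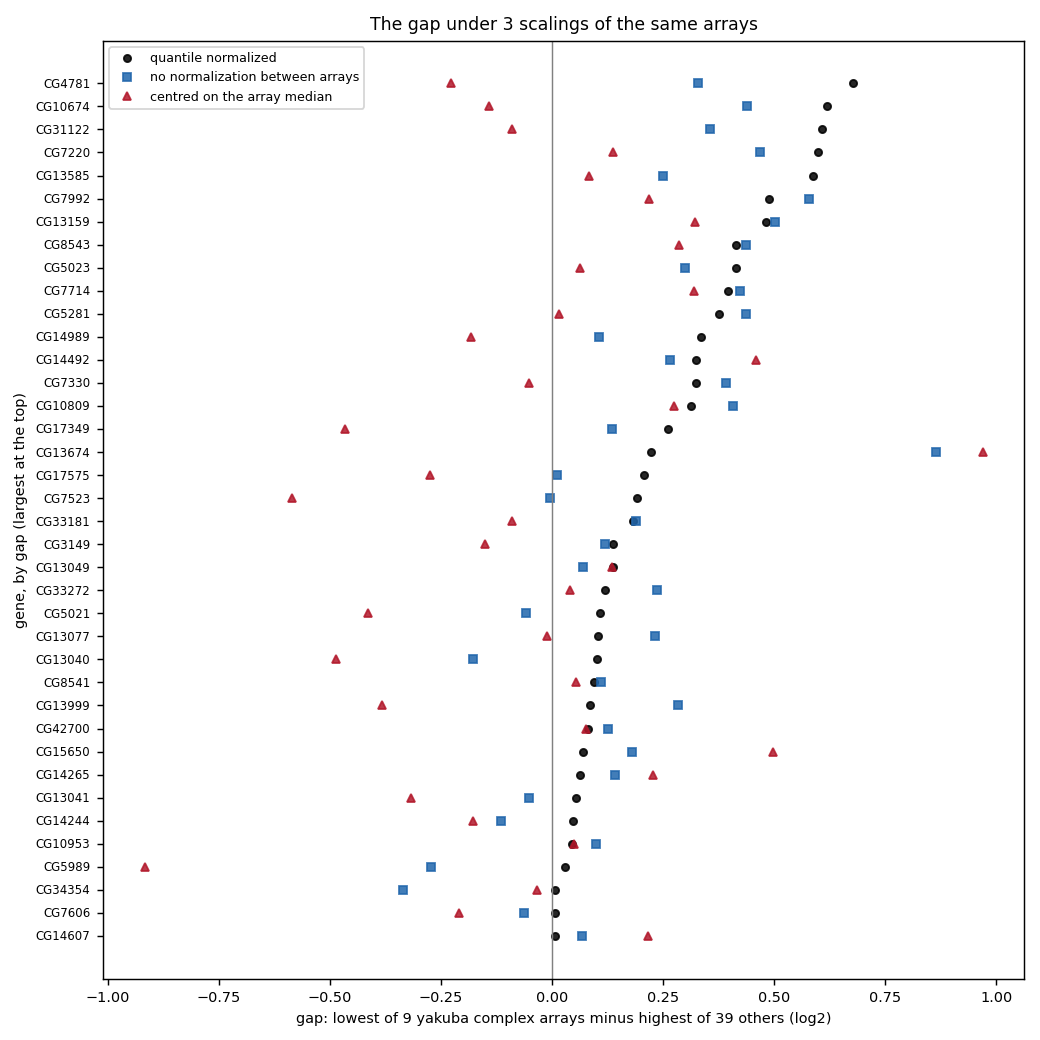
Gap of each of the 38 genes (log2, x axis) after quantile normalization (black circles), without normalization between arrays (blue squares) and after centring on the array median (red triangles). Circles lie right of 0 by the choice of genes, 30 squares and 19 triangles do so too, and the triangle of CG5989 lies farthest left, at −0.92.

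Differences among species within the yakuba complex, and among those outside it, were tested in limma over all 12367 features. They are not free of the choice of genes: a species of the yakuba complex that was clearly lower, or another species that was clearly higher, would tend to leave a gene out. The background share is printed beside each count, and nothing is read from their comparison. Between D. santomea and D. yakuba none of the 38 genes passed an adjusted p of 0.05, against a background of 5.05% of all features (2.64% higher and 2.42% lower in D. santomea). An unadjusted p under 0.05 was reached by 2 of the 38 and by 2377 of the 12367 features. CG5989 came nearest, at 11.98, 11.78 and 11.59 in D. santomea against 11.13, 11.04 and 11.14 in D. yakuba. These arrays did not overlap, and the estimate was 0.68 ± 0.23 (SE, limma adjusted p = 0.071). The median difference of the 38 genes was −0.19, against 0.01 over all features, with the mean of D. santomea below that of D. yakuba in 23 of 38 genes. The median SE was 0.31 in the 38 genes and 0.60 over all features, which the requirement for little spread also favours.

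D. teissieri differed from the mean of D. yakuba and D. santomea in 1 of the 38 genes, against 6.58% of all features (3.55% higher and 3.03% lower in D. teissieri). CG13159, whose values are given above, fell by 1.44 ± 0.46 on the log2 scale in D. teissieri (SE, limma adjusted p = 0.0496), with all 3 D. teissieri arrays below all arrays of D. yakuba and D. santomea. The call was at the threshold: it was lost without normalization (adjusted p = 0.0871), after median centring (0.148), and on leaving out any of 27 of the 48 arrays. A further 3 genes had an unadjusted p under 0.05 only. With CG13159 these were 4 of the 38, against 2520 of the 12367 features. CG17575 had an estimate of −0.86 ± 0.33 (SE), CG7606 one of 0.50 ± 0.20 and CG13040 one of 0.55 ± 0.23. The median difference of the 38 genes was −0.07, against 0.02 over all features.

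D. sechellia differed from D. mauritiana in 2 of the 38 genes, which is 5.26% of them and also 5.26% of all features (2.32% higher and 2.94% lower in D. sechellia). CG17575 read 10.55, 10.92 and 10.62 in D. sechellia against 9.45, 8.50 and 9.17 in D. mauritiana, a rise of 1.66 ± 0.38 (SE, limma adjusted p = 0.00508) that moved to 1.39 (adjusted p = 0.0555) without D. mauritiana replicate 2. CG5989 went the other way, at 9.84, 9.79 and 10.22 in D. sechellia against 10.95, 10.80 and 11.01 in D. mauritiana, and fell by 0.97 ± 0.23 (SE, limma adjusted p = 0.00529). Arrays did not overlap in either gene. D. mauritiana thus came close to the yakuba complex in CG5989, where its highest array lay 0.028 below the lowest of the 9. With only the arrays of these species fitted, CG17575 kept its call (adjusted p = 0.0384) and CG5989 lost it (0.0743). Without D. sechellia replicate 1 and D. simulans cross 37x43 replicate 3, the arrays with the most yolk and eggshell signal, the adjusted p was 0.0149 for CG17575 and 0.0259 for CG5989.

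D. simulans, taken as the equal mean of its 10 crosses, differed from D. melanogaster in 11 of the 38 genes (28.9%), against 19.2% of all features and 18.9% of the 4444 CG genes outside the group. Of these 10 were higher in D. simulans, where the background was 10.1%, and 1 was lower, where it was 9.1%. The median difference of the 38 genes was 0.30, against 0.09 over all features.

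CG10953 rose most, by 1.44 ± 0.29 (SE, limma adjusted p = 0.000475). Its lowest, median and highest values were 8.48, 9.66 and 10.23 in D. simulans, against 8.27, 7.43 and 8.55 in the D. melanogaster arrays, and the species overlapped slightly. CG7606 rose by 1.08 ± 0.17 (adjusted p = 1.59e-05), with 10.09, 10.39 and 10.91 in D. simulans against 9.45, 9.12 and 9.45 in D. melanogaster, and here the arrays did not overlap. CG13041 rose by 1.01 ± 0.18 (adjusted p = 0.00013), with 11.77, 12.25 and 13.16 in D. simulans against 11.28, 11.28 and 11.31 in D. melanogaster, again without overlap.

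CG7330 rose by 1.01 ± 0.20 (adjusted p = 0.000445) and CG10674 by 0.80 ± 0.18 (adjusted p = 0.00106). The other genes that rose were CG8541 (0.91 ± 0.31, adjusted p = 0.0348), CG7714 (0.71 ± 0.19, 0.00864), CG13040 (0.62 ± 0.20, 0.0238), CG3149 (0.60 ± 0.17, 0.0124) and CG5021 (0.45 ± 0.16, 0.0438). Several of these smaller differences depended on single arrays. Without replicate 2 of that species CG8541 had a difference of 0.23 (adjusted p = 0.706), and without replicate 3 only 7 genes were called, CG7714, CG13040, CG3149 and CG5021 being lost. CG7714 and CG13040 were also lost without replicate 2, and CG3149 and CG5021 without replicate 1. CG5021 lost its call on leaving out any of 18 arrays, most of them of D. simulans, and also without normalization (adjusted p = 0.07) and after median centring (0.121). CG13585 was the gene that was lower, by −1.43 ± 0.21 (adjusted p = 6.22e-06), with 9.04, 9.94 and 10.40 in D. simulans against 11.43, 11.35 and 11.18 in D. melanogaster. Among the species outside the yakuba complex D. melanogaster was highest, followed by D. simulans with D. sechellia, and D. mauritiana was last at 8.98 ± 0.08 (SD, n = 3).

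**Figure D5:**
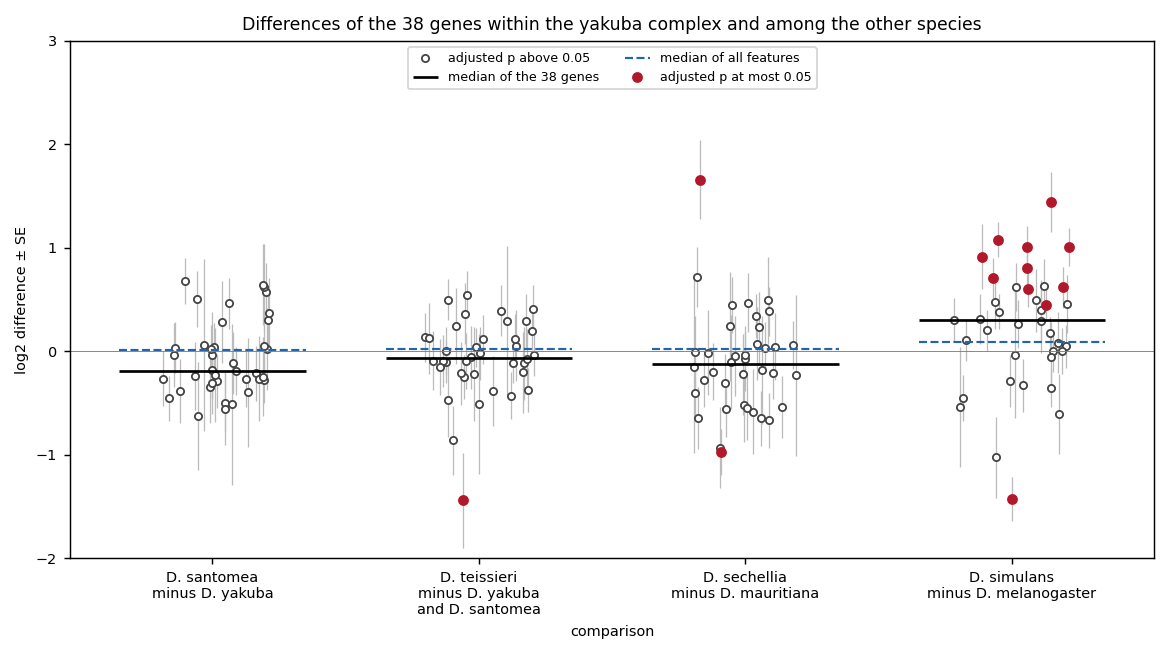
Log2 difference of each of the 38 genes (dots, ± SE) in the 4 tested comparisons, with the median of the 38 genes (black line) and of all 12367 features (blue dashes); red dots have an adjusted p of at most 0.05. No dot is red for D. santomea minus D. yakuba, 1 for D. teissieri, 2 for D. sechellia minus D. mauritiana and 11 for D. simulans minus D. melanogaster.

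Among the 10 crosses of D. simulans none of the 38 genes passed limma's moderated F-test, against 0.558% of all features. An unadjusted p under 0.05 was reached by 2 of the 38 (CG5021 and CG7992, smallest adjusted p = 0.412) and by 1070 of the 12367 features. A plain F-test of each feature called 1 of the 38, and its share over all features is not given here, so nothing is read from it. The means of the crosses ranged over 0.29 to 1.95 in a gene, with a median of 0.72, against 0.75 for features above the upper quartile of signal. Across the 10 cross means the 703 pairs of the 38 genes had a median Pearson r of 0.09, and 5.12% of pairs were above 0.6. The 2985 other CG genes at least as bright as the faintest of the 38 (mean over all arrays 6.69) served for comparison. Their pairs had a median of 0.01 and 5.04% above 0.6. The 2 shares of strongly correlated pairs were thus near each other. Brightness was not matched beyond that lower limit, and the median of the 38 genes was 9.95, so nothing further is read from this. The highest values were those of CG8543 with CG13674 (r = 0.89) and CG13674 with CG13041 (r = 0.82). These correlations are over 10 means that share lines and are given as a description.

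Of the 38 genes, 4 have further probe sets. CG13674 was alike in both of its own, with a difference of 1.48 in the brighter probe set that was used and 1.43 in the other. CG34354 differed by 1.51 in the probe set used and by 1.46 and 1.83 in the others, and CG42700 by 1.07 and 1.63. CG31122 was the exception: the probe set used differed by 1.97, and the other by 0.46, with a gap of −2.07. The gaps of all these further probe sets were below 0. Whether probe sets share sequence with each other or with other genes was not tested, so those of a gene are not taken as independent readings.

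Some of the 38 genes have neighbouring numbers. CG numbers were partly given along the chromosome, but position was known here for few genes: on the part of chromosome 2L whose gene order could be read, only 29.3% of genes with consecutive numbers started within 10 kb of each other. A total of 5 pairs of the 38 genes, made up of 7 genes, had numbers at most 10 apart, namely CG5021 with CG5023, CG8541 with CG8543, and CG13040, CG13041 and CG13049. The 208 other CG genes with a number that near to one of the 38 had a median difference of 0.20 between the yakuba complex and the others, against 0.06 in the remaining 4236, and 59.1% of them were higher in the yakuba complex, against 52.3%. These 208 include many genes of the stretch CG13036 to CG13070, described at the end, where 29 of 31 measured genes were higher. The values without that stretch were not computed, so no general trait of near numbers is read from them. CG13999 was the only one of the 38 on that part of 2L, from 5955614 to 5956225 on the minus strand (D. melanogaster release 4.3). It averaged 10.74 in the yakuba complex and 9.33 in the other species. CG13998, next to it on the same strand, averaged 6.72 and 5.02, whereas CG9044 on its other side averaged 6.08 in the yakuba complex and 7.34 in the others.

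The features whose pattern was most like that of CG4781 were found by Pearson's r over the 16 group means. They were IP3K2 (r = 0.97), which encodes an inositol trisphosphate kinase, 2 probe sets without a gene symbol (both r = 0.96), Cpr66Cb (r = 0.96), which encodes a cuticular protein, and yki (r = 0.95), the transcriptional co-activator of the Hippo pathway. IP3K2 averaged 10.73 in the yakuba complex and 9.51 in the other species, and yki averaged 11.60 and 10.21. Both of these genes met the same requirement for all arrays, with gaps of 0.23 for IP3K2 and 0.35 for yki, while Cpr66Cb did not (gap −2.28). The 2 probe sets without a symbol also met it, with gaps of 0.56 and 0.71. CG4781 was chosen by the contrast of the yakuba complex with the others, so features with that contrast tend to rank as alike.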

How the data were processed

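RNA of whole males was hybridized to Affymetrix Drosophila arrays, 48 in all. The deposited intensity values are linear signals, 1 for each probe set, that the authors computed with MAS5. The methods describe Loess smoothing and a mask for probes without an exact match in D. yakuba. The paper left out probe sets that lost nearly all their probes to the mask. All 14010 probe sets were in the table used here, so these signals are not the masked set that the paper analysed. Whether the smoothing was applied to them could not be told. The paper reports that expression estimates tended to be higher when mismatched probes were kept. Whether this raised the signals of the chosen genes in the yakuba complex was not tested. Every column of values was mapped to an array.

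Values below 1 were set to 1 (31 values), log2 was taken, and arrays were quantile normalized, since their medians ran from 7.56 to 8.25. Controls (44) were left out. Of the probe sets 12444 carry 1 symbol, 327 several and 1239 none, by the platform annotation. The brightest probe set of each of 1209 genes with more than 1 was kept, leaving 12367 features. Groups were compared with limma 3.58.1 (R 4.3.3), lmFit and eBayes over 16 groups, with Benjamini-Hochberg adjustment over all features tested. The fits were tested on simulated data. Descriptions and plots used Python 3.11.15, numpy 2.4.6, pandas 2.3.3 and matplotlib 3.10.9. The number of arrays limits the precision.

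The genes, marker lists and comparisons were chosen with earlier results of these data known. Genes named were the 20 with the largest gap, the 5 just inside and outside the limit, the highest and lowest signals, those past a test's threshold, genes with near numbers and the 5 features most like CG4781. Parts of that rule that need positions, protein sequences or functions could not be applied beyond the part of 2L with a gene order. Alternatives were no normalization, median centring, a floor of 16, the mean of probe sets, a mean log2 signal of at least 6, only the groups compared, the replicate number as a block, a plain F-test and leaving out each array. Added after seeing the data were other sets of comparison arrays and leaving out both arrays with yolk and eggshell signal.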

Additional observations from a re-analysis of the deposited data

How the results depend on the processing

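No tested difference of a named gene turned its direction under any of the alternatives run: of 112 values under other settings 7 lost the threshold, and of 384 with an array left out 31 did. The genes found by the requirement numbered 176 against D. sechellia and D. mauritiana alone, where only 6 arrays set the limit, and 38 to 51 with 1 array left out. For D. teissieri the count of 1 became 0 without normalization, with median centring, with the mean of probe sets and with only the groups compared, and was 0 to 1 with an array left out. For D. sechellia against D. mauritiana the count was 1 with only the groups compared, where CG5989 had an adjusted p of 0.0743, and 1 to 2 with an array left out. For D. simulans against D. melanogaster it was 7 to 12, and for D. santomea against D. yakuba 0 to 0. Among the crosses a plain F-test called 1, with no share over all features given, and 0 to 0 were called by the moderated F-test with an array left out. CG5021 lost its call without normalization (adjusted p = 0.07), with median centring (0.121) and on leaving out any of 18 arrays. With the replicate number as a block the counts were 0 for D. santomea against D. yakuba, 1 for D. teissieri, 2 for D. sechellia against D. mauritiana, 11 for D. simulans against D. melanogaster and 0 among the crosses, as without it. Whether the numbers pair the arrays was not settled. Arrays with the same number had correlations of deviations between −0.07 and 0.15 in the species pairs checked. For replicates 1, 2 and 3 of D. santomea with D. yakuba they were 0.09, 0.15 and 0.07. The highest values with another number were 0.05, −0.09 and 0.05 there. In the other species pairs same-number values were higher for some replicates and lower for others. The table used here holds no detection calls, so signal over background could not be judged for single probe sets.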

Other observations

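CG13040, CG13041 and CG13049 fall in a stretch of numbers, CG13036 to CG13070, that was chosen after its values were seen. On the array 31 genes of the stretch were measured. Of these, 29 had a higher mean in the yakuba complex than in the other species, and 17 by at least 1 on the log2 scale (54.8%), against 747 of all CG genes (16.7%). Their median difference was 1.15, against 0.08 over all CG genes. The 28 genes outside the 38 had gaps of −0.13 down to −5.88, with 18 of them at −1 or lower, so that most overlapped between the yakuba complex and the others by at least 1 on the log2 scale. The smallest overlaps were these: CG13051 averaged 13.62 in the yakuba complex and 11.64 in the others with a gap of −0.13, CG13038 averaged 9.72 and 7.79 with a gap of −0.19, and CG13060 averaged 12.30 and 10.50 with a gap of −0.24. CG13039 went the other way, at 6.78 in the yakuba complex and 9.15 in the others. The positions of these genes were not used here, and whether their probe sets share sequence was not tested.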
